A study of Mus musculus with 2 samples.

Results

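The 8 intermediate filament genes described here were taken by symbol from the 31253 genes of the deposited tables, where each had 1 row. Nefl, Nefm and Nefh encode the light, medium and heavy neurofilament subunits, Ina encodes alpha-internexin and Prph encodes peripherin. Vim, Gfap and Des encode vimentin, glial fibrillary acidic protein and desmin. The libraries, replicates 1 and 2, were 10x Genomics 3′ v3.1 libraries of dissociated lumbar dorsal root ganglia (L4 and L5) from wild-type mice aged 8 weeks that had received acetone-ether-water, a model of dry-skin itch. Both libraries belong to that treatment and no untreated group was analysed here, so every comparison is between cell types of the same ganglia and bears on no effect of the treatment. The labels do not say whether the libraries came from separate animals, so the spread between them may be technical.

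Intermediate filaments are rope-like polymers that give a cell mechanical strength, and which genes supply them depends on the cell type. In axons the neurofilament subunits copolymerise, and their amount sets the calibre of large myelinated fibres. Peripherin is the intermediate filament typical of small sensory neurons with unmyelinated axons, vimentin that of glia and mesenchymal cells, GFAP that of reactive glia and non-myelinating Schwann cells, and desmin that of muscle and pericytes.

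Cell types were assigned barcode by barcode from fixed marker lists that hold none of the 8 genes. Of 18044 barcodes kept, 7774 came from replicate 1 and 10270 from replicate 2, with median depths of 4991 and 4102 UMIs (unique molecular identifiers, 1 per captured RNA molecule). The labels call the cells neurons, yet 1479 barcodes passed as neurons of at least 10000 UMIs, 598 and 881 per library, at median depths of 105600 and 57910 UMIs. Satellite glia were the largest type, with 2483 and 2775 barcodes. Neurons were divided into large A-fibre neurons (NF, 40 and 65), peptidergic A-delta neurons (PEP-A, 33 and 29), cold-sensing TRPM8 neurons (44 and 43), peptidergic C neurons (PEP-C, 137 and 209), Th-positive C-fibre touch neurons (TH, 57 and 154), Mrgpra3 itch neurons (NP2, 38 and 41), Nppb and Sst itch neurons (NP3, 38 and 45) and Mrgprd nociceptors (NP1, 131 and 159), and 216 neurons stayed unnamed. All 9 neuron markers were highest in neurons in both libraries, as were 6 of 7 NF markers in NF and 6 of 6 NP3 markers in NP3. PEP-A and NP1 had 3 of 5 markers each highest in both libraries, and for PEP-A 4 of the 5 were detected in both. The types were assigned by these same markers, so these counts are no separate check of the types. Levels are given as UMIs of the gene per 10000 UMIs of the type, in replicate 1 and then replicate 2, and since each UMI marks 1 molecule at its 3′ end they were not divided by transcript length.

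On build GRCm38 the neurofilament genes Nefl and Nefm share a locus. Nefl (chr14:68083863-68089095, plus strand) lies within the span of Nefm (chr14:68082590-68124846, minus strand), and the sources used here do not state whether counting used strand, so reads of the pair cannot be told apart with certainty. The ratio of Nefm to Nefl UMIs varied with cell type, at 0.602 and 0.514 in NF against 0.139 and 0.165 in TH, which does not show how reads of the pair were counted. Nefh lies at chr11:4938754-4948064 (minus strand), Ina at chr19:47014698-47025327 (plus strand, its start overlapping Nt5c2) and Prph at chr15:99055174-99058978 (plus strand). Vim lies at chr2:13573927-13582826 (plus strand), Gfap at chr11:102887336-102900912 (minus strand) and Des at chr1:75360329-75368579 (plus strand, its end overlapping Gm15179). All 8 are protein-coding genes.

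RefSeq promoter windows of 300 bases on GRCm38.p6, from 250 bases before to 50 after a gene's start, were matched by symbol for 5 of the 8 genes. Those of Prph, Vim and Des are printed because these genes had the most distinct places among neurons, glia and mural cells. Each was searched on both strands for TATAAA (the TATA box), GGGCGG (an Sp1-type GC box) and CAGCTG (an E-box), which do not overlap each other here, and capitals mark the matches, with a minus-strand GC box reading CCGCCC. The windows are chr15:99054924-99055223, chr2:13574061-13574360 and chr1:75360042-75360341, all on the plus strand.
Prph: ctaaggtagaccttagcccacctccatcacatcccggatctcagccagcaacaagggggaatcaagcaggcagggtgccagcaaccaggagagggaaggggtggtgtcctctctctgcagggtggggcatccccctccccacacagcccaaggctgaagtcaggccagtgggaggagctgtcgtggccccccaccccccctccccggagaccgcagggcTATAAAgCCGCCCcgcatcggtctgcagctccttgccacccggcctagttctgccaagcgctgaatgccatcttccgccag
Vim: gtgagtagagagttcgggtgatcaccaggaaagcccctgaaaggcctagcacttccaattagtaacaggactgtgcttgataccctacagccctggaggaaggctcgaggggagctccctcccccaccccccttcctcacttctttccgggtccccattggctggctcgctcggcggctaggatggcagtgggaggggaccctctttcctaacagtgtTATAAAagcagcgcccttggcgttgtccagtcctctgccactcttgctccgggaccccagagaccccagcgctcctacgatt
Des: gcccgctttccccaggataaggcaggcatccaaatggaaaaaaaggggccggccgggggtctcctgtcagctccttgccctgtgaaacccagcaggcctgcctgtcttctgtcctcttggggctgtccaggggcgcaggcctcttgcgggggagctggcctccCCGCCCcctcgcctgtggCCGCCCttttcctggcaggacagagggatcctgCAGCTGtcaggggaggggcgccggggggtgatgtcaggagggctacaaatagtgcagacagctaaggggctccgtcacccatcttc
Prph held 1 TATAAA and 1 GGGCGG, Vim held 1 TATAAA, and Des held 2 GGGCGG and 1 CAGCTG. Of 32851 promoter windows of that length, 13.6% held TATAAA, 35.7% held GGGCGG and 16.3% held CAGCTG. Matches are descriptions of these letters and not sites of binding. The windows of Ina (2 GGGCGG and 1 CAGCTG) and Gfap (no match) are not printed.

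The neurofilament triplet was highest in NF neurons. Nefl, the subunit on which neurofilaments are built, had 62.9 and 69.8 UMIs per 10000 in NF and 40.2 and 35.5 in PEP-A. It had 35.2 and 30.2 in NP1, 33.8 and 28.7 in NP2 and 26.4 and 24.1 in TRPM8. The lowest levels were 16.3 and 16.1 in TH, 14.9 and 12.9 in PEP-C and 9.02 and 9.21 in NP3. In that order the library values of neighbouring types overlapped for NP1 and NP2 and stood apart for the other pairs.

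Nefm, the medium subunit, whose long tail projects from the filament, had 37.8 and 35.9 UMIs per 10000 in NF. PEP-A had 15.3 and 9.87 and TRPM8 had 14.2 and 10.3, which overlapped, and TH was lowest by summed UMIs with 2.27 and 2.65. NP3 had 4.25 and 4.09, but 4 of its 38 cells held 60.3% of its Nefm UMIs in replicate 1, and its median over cells was 1.90 and 1.65, against 2.15 and 2.01 in TH. Nefh, the heavy subunit and a classical marker of neurons with myelinated axons, had 27.8 and 20.9 in NF and 15.6 and 9.77 in PEP-A, apart from 5.44 and 2.90 in TRPM8 and from every C-fibre type. NP3 had 3.01 and 1.77, PEP-C 2.34 and 1.69, NP1 1.51 and 1.29, TH 0.961 and 1.17, and NP2 1.12 and 0.983. From the highest to the lowest type Nefh therefore spanned a wider range of levels than Nefl, and NP1 and NP2 stood just below PEP-A in the order of Nefl but below PEP-C in that of Nefh.

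**Figure D1:**
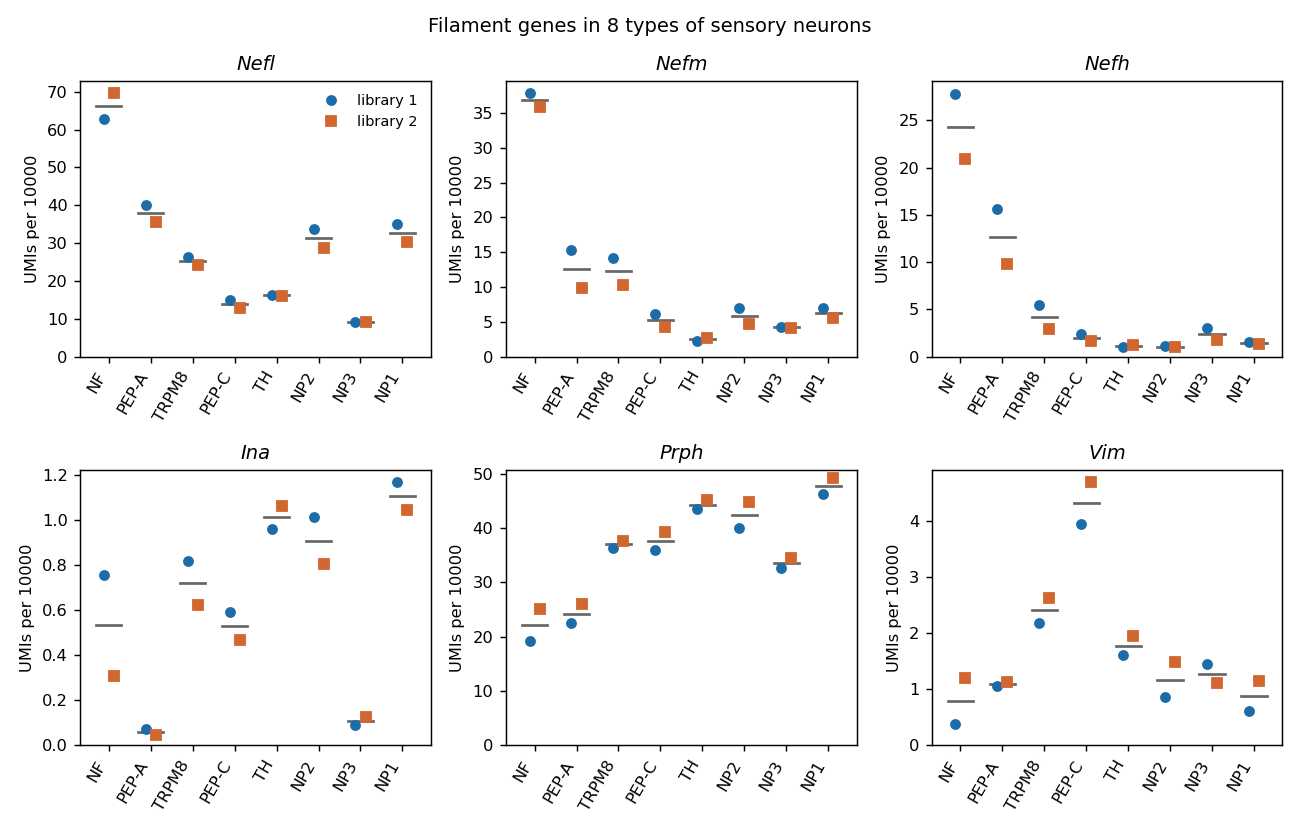
Level of Nefl, Nefm, Nefh, Ina, Prph and Vim in 8 neuron types, as UMIs of the gene per 10000 UMIs of the type on a linear axis. Points are the 2 libraries and bars their mean. The neurofilament triplet peaks in NF, while Prph is lowest in NF and PEP-A.

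Set against the C-fibre types (the mean of NP1, NP2, NP3, TH and PEP-C), NF neurons carried more of all 3 triplet genes and less Prph and Vim. For each of these 5 genes both NF libraries lay on the same side of both C-fibre values. In this comparison 6 of the 8 genes passed the low-count filter of the neuron fit, Gfap and Des did not, and 5 of the 6 passed the test at an adjusted p of 0.05, where 45.6% of the 12837 genes tested did. The log2 difference of Nefh was 3.91 ± 0.13 (SE, edgeR adjusted p = 2.3e-12), with 2753 and 1924 CPM (counts per 1000000, scaled by TMM) in NF against 178.8 and 142.4 in the C-fibre types. Nefm was higher by 2.92 ± 0.11 (edgeR adjusted p = 7.23e-12) and Nefl by 1.75 ± 0.08 (edgeR adjusted p = 1.4e-10). Prph fell by 1.00 on the log2 scale (SE 0.10, edgeR adjusted p = 9.8e-07), with 1895 and 2309 CPM in NF against 4071 and 4458 CPM. Vim was lower by a log2 difference of -1.23 ± 0.25 (SE, edgeR adjusted p = 0.000875), at 37.1 and 109.6 CPM in NF against 164.9 and 213.2 CPM, and by -1.90 without the second library, with no test. The Vim values of NF lay below those of PEP-C (368.0 and 478.4 CPM) and TH (158.4 and 187.1 CPM). They overlapped those of NP1 (69.8 and 129.3 CPM), NP2 (90.8 and 164.3 CPM) and NP3 (137.7 and 107.2 CPM). The Vim difference therefore holds for the mean of the C-fibre types, and NF was not tested against each type. Ina did not pass (log2 difference -0.19 ± 0.21, edgeR adjusted p = 0.488).

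Among peptidergic neurons the A-delta type differed from the C type in all 6 tested genes, where 19.2% of genes passed in this comparison. Nefh was higher in PEP-A than in PEP-C by 2.69 ± 0.21 (SE, log2, edgeR adjusted p = 5.42e-07), at 1539 and 1010 CPM in PEP-A against 218.7 and 172.0 CPM in PEP-C. Nefl was higher by 1.50 ± 0.12 and Nefm by 1.32 ± 0.17. Ina, Vim and Prph were lower, with log2 differences of -3.06 ± 0.37, -1.91 ± 0.30 and -0.59 ± 0.12. The Prph call was lost without the library term (edgeR adjusted p = 0.0529). PEP-A rests on 33 and 29 cells, and neither the Leiden clusters nor the wider marker margin yielded a PEP-A type large enough to test.

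NF neurons in turn exceeded PEP-A in 4 of the 6 genes, where 19.9% of genes passed and 10.2% passed as higher. Nefm was higher by 1.50 ± 0.17, Nefh by 0.88 ± 0.20 and Nefl by 0.73 ± 0.12 (SE, log2, edgeR adjusted p = 1.29e-05, 0.00503 and 0.000483). Without the library term Nefh did not pass (edgeR adjusted p = 0.0824). Ina had the largest difference of the 4, 3.03 ± 0.38. Prph (-0.22 ± 0.12) and Vim (-0.70 ± 0.31) did not pass, with edgeR adjusted p of 0.235 and 0.132.

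**Figure D2:**
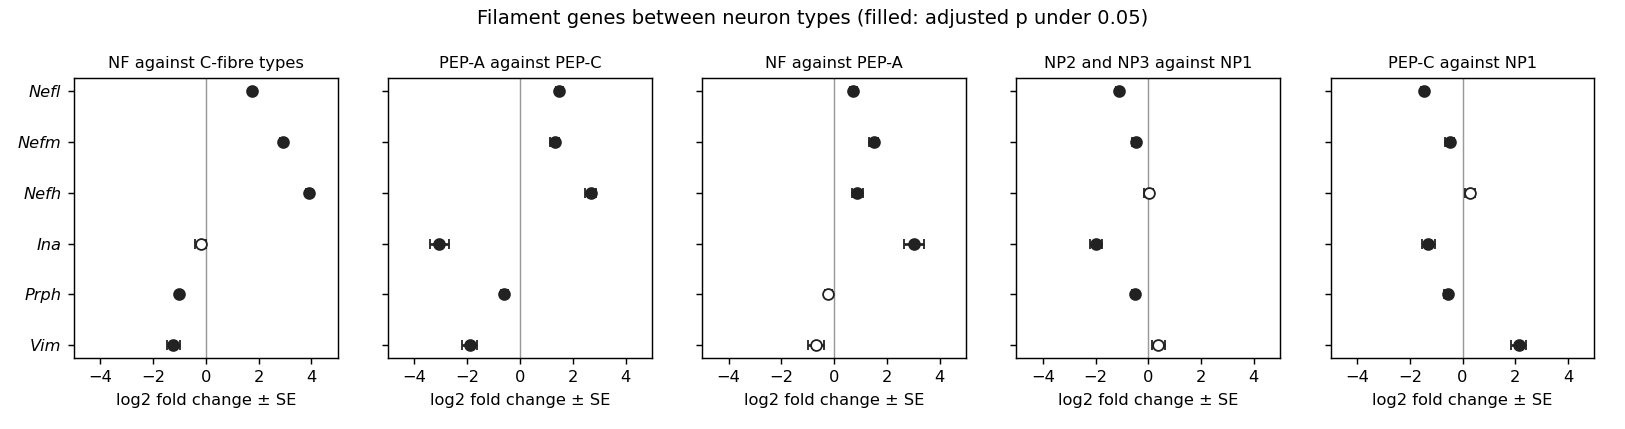
Log2 fold changes with SE of the 6 tested genes in 5 comparisons of neuron types, from edgeR on UMIs summed per type and library (2 libraries a type). Filled circles passed an adjusted p of 0.05. Nefh moves by 3.91 and Nefl by 1.75 between NF and C-fibre types, while Prph moves the other way.

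Itch neurons (the mean of NP2 and NP3) had lower filament levels than NP1 in 4 of the 6 genes, where 25.4% of genes passed and 13.5% passed as lower. The log2 differences were -2.0 ± 0.22 for Ina, -1.11 ± 0.10 for Nefl, -0.50 ± 0.10 for Prph and -0.49 ± 0.14 for Nefm (SE, edgeR adjusted p = 6.83e-06, 9.38e-07, 0.00201 and 0.0179), and Nefm did not pass without the library term (edgeR adjusted p = 0.128). Taken singly, NP3 against NP1 had the larger values. In that comparison Ina (-3.64 ± 0.32), Nefl (-2.08 ± 0.13), Nefm (-0.80 ± 0.17) and Prph (-0.75 ± 0.12) were lower, where 33.3% of genes passed and 16.5% passed as lower. In NP2 against NP1, where 14.9% of genes passed, the count of filament genes that passed was 0 of 6 with edgeR and 0 with DESeq2, and 1 of the 6 had an unadjusted edgeR p under 0.05. Nefh passed there as lower with no low-count filter and with Leiden clusters (edgeR adjusted p = 0.0111 and 0.0233). The difference between NP2 and NP3 was not tested in itself, and both are set against the same NP1 sums.

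Nefh and Nefm in NP3 depended on a few cells. Most NP3 cells had little of any triplet gene, with a median of 4.22 and 4.24 Nefl UMIs per 10000 over cells. In replicate 1, 2 of 38 cells exceeded 20 Nefl UMIs per 10000, and those 2 had 28.8 Nefh UMIs per 10000 in sum and no cell with both Nppb and Sst, against 1.13 and 32 of 36 cells in the rest. In replicate 2, 12 of 45 cells exceeded it, with 8.41 Nefh UMIs per 10000 and 10 of 12 cells with both Nppb and Sst, against 0.706 and 27 of 33 cells in the rest. The Nppb level of the 12 cells was 5.89 UMIs per 10000 at a median depth of 19510 UMIs, against 24.3 and 61430 in the rest. Nefh did not pass in NP3 against NP1 (log2 difference 0.50 ± 0.20, edgeR adjusted p = 0.0714). It passed as higher with no low-count filter (0.42) and with at least 1000 genes per barcode (0.49), at edgeR adjusted p of 0.0468 and 0.0385. With neurons from 20000 UMIs or with types from Leiden clusters it passed with the opposite sign, at -0.54 and -0.81 (edgeR adjusted p = 0.0309 and 0.000612).

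TH neurons against NP1 had lower Nefm (log2 difference -1.54 ± 0.17), Nefl (-1.24 ± 0.12), Nefh (-0.58 ± 0.20) and Prph (-0.33 ± 0.12) and higher Vim (0.85 ± 0.28), so that 5 of 6 genes passed where 36.2% of genes did. The Prph call (edgeR adjusted p = 0.0439) was lost under 6 alternatives, at edgeR adjusted p of 0.0506 to 0.205. Nefh and Vim did not pass without the library term (edgeR adjusted p = 0.17 and 0.185), nor Vim with Leiden clusters (0.354). PEP-C against NP1 had lower Nefl (-1.46 ± 0.12), Ina (-1.29 ± 0.24), Prph (-0.57 ± 0.12) and Nefm (-0.49 ± 0.16) and higher Vim (2.13 ± 0.29), again 5 of 6, where 43.6% of genes passed. Nefh did not pass there (0.28 ± 0.20, edgeR adjusted p = 0.269), although it did with Leiden clusters (0.0182). The Nefm call was lost without the library term and with neurons from 20000 UMIs (edgeR adjusted p = 0.139 and 0.0565).

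The make-up of the filament RNA also differed between neuron types. Nefl, Nefm, Nefh, Ina and Prph together made 1.48% and 1.52% of all UMIs in NF, 0.936% and 0.812% in PEP-A, and 0.490% and 0.497% in NP3, the lowest. The triplet supplied 86.6% and 83.3% of those UMIs in NF and 75.9% and 67.9% in PEP-A. It supplied 47.8% and 42.4% in NP1, 38.9% and 32.1% in PEP-C and 30.5% and 30.1% in TH, where Prph supplied most of the remainder. Cells with more Nefh than Prph UMIs numbered 26 of 40 and 16 of 65 in NF and 10 of 33 and 5 of 29 in PEP-A, and at most 3 in a library in each other named type.

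**Figure D3:**
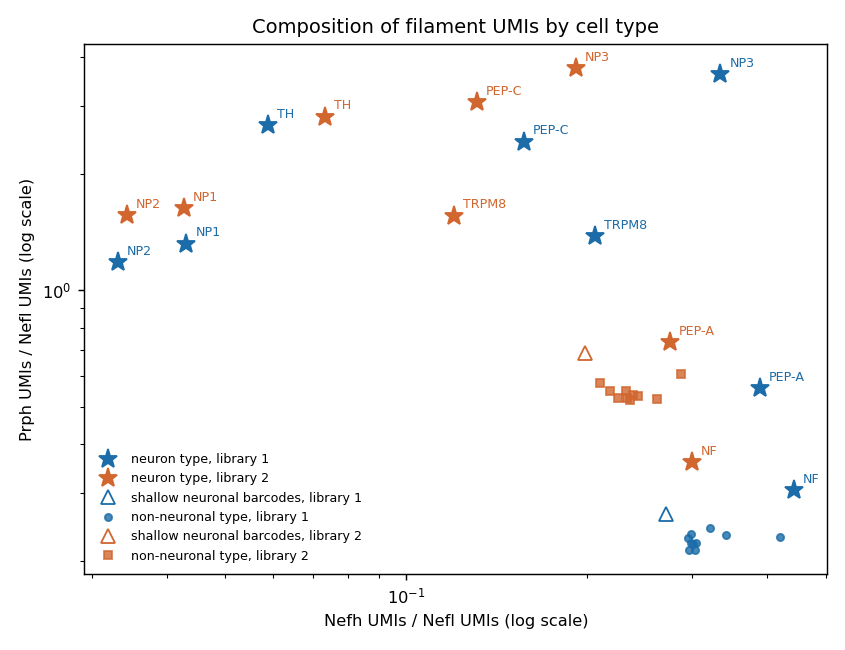
UMIs of Nefh and of Prph, each divided by the UMIs of Nefl, for 8 neuron types, shallow neuronal barcodes and 10 non-neuronal types in each library, on log axes. Neuron types spread over the plane, while non-neuronal types of a library lie close together, at a Prph to Nefl ratio of 0.213 to 0.243 in replicate 1 and 0.521 to 0.609 in replicate 2.

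Cells of a type shared these proportions to different degrees. In NF, Spearman's rho across cells between Nefl and Nefm was 0.904 (40 cells) and 0.859 (65 cells), and in PEP-A it was 0.875 and 0.785. Between Nefl and Prph it was -0.07 and 0.257 in NF and -0.367 and -0.015 in PEP-A. In NP1 the Nefl and Prph values were more alike, at 0.474 and 0.396. The cells of a library share its depth and free RNA, so these are descriptions with no test.

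Ina, which copolymerises with the triplet in central neurons, was a minor component. Its highest levels were 1.17 and 1.05 UMIs per 10000 in NP1, 0.961 and 1.06 in TH and 1.01 and 0.805 in NP2, which overlapped. NP3 had 0.0902 and 0.127 and PEP-A had 0.0737 and 0.0459, apart from all others. The NF level of 0.758 and 0.310 came from few cells. The 4 and 7 cells with the highest Ina level held 56.1% and 57.8% of its UMIs in NF, 9 of 40 and 3 of 65 cells exceeded 1 UMI per 10000, and the level without those cells was 0.356 and 0.142.

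Prph was abundant in every neuron type. It had 46.4 and 49.3 UMIs per 10000 in NP1, 43.6 and 45.1 in TH, 40.0 and 44.9 in NP2, 36.0 and 39.3 in PEP-C, 36.4 and 37.7 in TRPM8 and 32.6 and 34.5 in NP3. The lowest values, 22.5 and 26.1 in PEP-A and 19.2 and 25.1 in NF, overlapped. Over the 16 sums of type and library, Pearson's r of log2(CPM + 1) between Prph and Nefh was -0.914, and between Nefm and Nefh it was 0.881. The 16 sums share 2 libraries and a fixed total, so no p is given.

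The genes whose levels over those 16 sums were most like a member, among 12837, were Ppm1f (r = 0.908), Dzank1 and Zfp804a for Nefl, Tacc2 (0.937), Myh10 and Slc8a3 for Nefm, and Adam23 (0.968), Rasl10b and Slc16a6 for Nefh. For Ina they were St6galnac3 (0.894), Ncald and Cmtm4, and for Prph they were Zfand6, Ilkap (both 0.943) and Siah1a.

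Genes that partner filaments were read from a list of 27 that mark no type in the gate, of which 23 were tested. In NF against the C-fibre types 10 were higher and 6 lower, where 25.2% of all genes passed as higher and 20.4% as lower, and the median log2 difference was 0.18 over the 23 and -0.01 over all genes. Map2, a microtubule-associated protein of cell bodies and dendrites, was higher by 3.66 ± 0.16 (SE, log2, edgeR adjusted p = 7.33e-11). Sptbn4, the spectrin of nodes of Ranvier, was higher by 1.81 ± 0.14, Map1b by 0.88 ± 0.10 and Trim2, a ubiquitin ligase that targets the light subunit, by 0.81 ± 0.11. Lmna (lamin A/C, -1.0 ± 0.16), Ank3 (ankyrin-G, -0.78 ± 0.14) and Kif5b (a kinesin motor, -0.55 ± 0.11) were lower. In PEP-A against PEP-C 6 of 23 passed, all higher, where 10.8% of all genes did so, and Sptbn4 (1.20 ± 0.20), Map2 (0.83 ± 0.22), Trim2 (0.77 ± 0.15) and Cdk5r1 (an activator of the neurofilament kinase Cdk5, 0.76 ± 0.22) led them. The median was 0.27 over the 23, against -0.02 over all genes.

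Between the other pairs of neuron types 3 to 8 of the 23 partners passed. In NF against PEP-A 2 were higher and 1 lower, including Synm (synemin, an intermediate filament protein that needs a partner to polymerise, 0.94 ± 0.15) and Mapt (tau, -1.13 ± 0.14). In itch neurons against NP1 3 were higher and 1 lower, Plec (plectin, a linker of filaments, 0.74 ± 0.14), Mapt (0.54 ± 0.12), Map1b (0.40 ± 0.12) and Kif5b (-0.44 ± 0.12). In PEP-C against NP1 5 were higher and 3 lower, among them Map2 (3.06 ± 0.25), Plec (1.02 ± 0.15) and Kif5b (-1.77 ± 0.14). As higher and lower, 10.2% and 9.69% of all genes passed in NF against PEP-A, 11.9% and 13.5% in itch neurons against NP1, and 23.1% and 20.4% in PEP-C against NP1. Against NP1, 2 partners were higher and 2 lower in NP2 (7.91% and 6.98% of genes), 6 of 23 passed in NP3, all higher (16.8% of genes), led by Plec (1.17 ± 0.16), and 3 were higher and 3 lower in TH (18.3% and 17.9% of genes), led by Kif5c (2.10 ± 0.13) and Kif5b (-0.83 ± 0.14).

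Outside neurons, UMIs of the triplet and of Prph were found in every cell type. Neurons held 62.2% and 53.8% of all UMIs in kept barcodes. Their shares were 76.6% and 68.4% for Nefl, 67.3% and 62.1% for Nefm and 63.8% and 57.3% for Nefh, the last close to that base. They were 93.5% and 88.0% for Ina and 94.2% and 85.7% for Prph. In the 10 non-neuronal types Nefl ranged from 6.23 to 8.02 UMIs per barcode in replicate 1 and from 4.45 to 5.86 in replicate 2, while the types' median depths ranged from 2925 to 10710 and from 1755 to 6828 UMIs. Nefl per barcode thus varied by 1.29-fold and 1.32-fold between non-neuronal types, against 3.36-fold and 3.12-fold per 10000 UMIs. The ratio of Prph to Nefl UMIs was nearly the same in all 10, 0.213 to 0.243 in replicate 1 and 0.521 to 0.609 in replicate 2, and the triplet supplied 88.0% to 89.5% and 73.6% to 76.3% of the summed filament UMIs.

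Tubb3, a neuronal tubulin, was also evenly spread, at 2.21 and 2.28 UMIs per barcode in satellite glia, 2.38 and 2.31 in macrophages and 2.53 and 2.48 in endothelial cells. The spread was wider for some genes, with Nefh varying 1.8-fold and 1.34-fold per barcode between non-neuronal types and Ina, on few UMIs, 3.66-fold and 8.72-fold. Calca, a neuropeptide gene, had 3.86 and 6.87 UMIs per barcode in non-myelinating Schwann cells, against 2.98 and 3.85 in satellite glia. Filament UMIs of neuronal genes in these types cannot be told apart from free RNA and were not read as expression. For the partner genes named below in comparisons of non-neuronal types, the part of free RNA was not tested. The mean per barcode over endothelial, macrophage and other immune cells would make 2.33% and 3.60% of Nefl UMIs in neurons, but 20.9% and 19.9% of Nefh UMIs in TH. The proportions of these UMIs were nearer to those of NF, where Prph to Nefl was 0.305 and 0.359, than to those of all neurons, where it was 1.30 and 1.63.

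**Figure D4:**
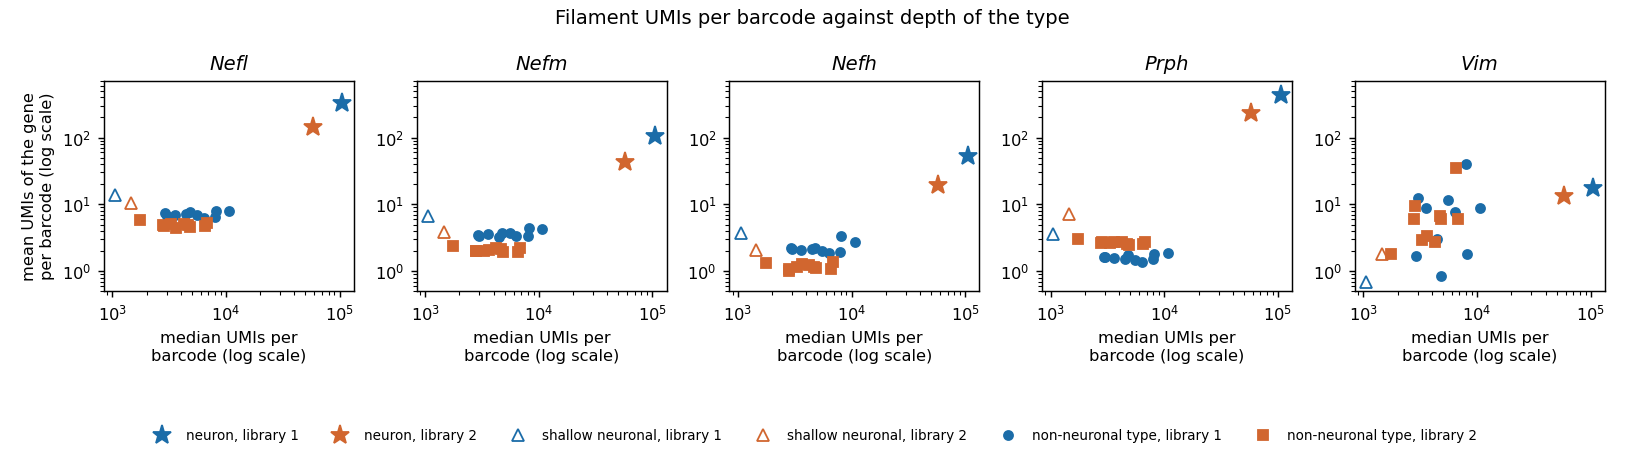
Mean UMIs per barcode of Nefl, Nefm, Nefh, Prph and Vim against the median depth of the cell type, on log axes, for neurons (stars), shallow neuronal barcodes (triangles) and 10 non-neuronal types (circles for replicate 1, squares for replicate 2). Nefl stays between 4.45 and 8.02 UMIs per barcode in the non-neuronal types whatever their depth, while Vim ranges from 0.850 to 40.6.

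Neurons against satellite glia, the cells that wrap them, showed the largest differences in Ina, Prph and Vim. Of the 8 genes, all tested in the broad fit, 7 passed where 64.4% of 13301 genes did. Ina was higher in neurons by 3.93 ± 0.26, Prph by 3.77 ± 0.29, Nefl by 1.69 ± 0.24, Nefm by 1.11 ± 0.21 and Nefh by 0.85 ± 0.20 (SE, log2). Nefh did not pass without the library term (edgeR adjusted p = 0.0928). The satellite glia levels of these neuronal genes cannot be told apart from free RNA, so the size of their differences may depend on it. Vim was lower by a log2 difference of -4.89 ± 0.43 (edgeR adjusted p = 6.43e-09), with 140.5 and 210.5 CPM in neurons against 4993 and 5210 in satellite glia. Gfap was also lower, -3.49 ± 0.70, on 6 and 14 UMIs in neurons and 19 and 58 in satellite glia, all under 20 CPM. Of the 23 partners 15 were higher and 5 lower, where 30.5% of genes passed as higher and 33.9% as lower. Kif5a (a neuronal kinesin, 3.06 ± 0.19), Synm (2.88 ± 0.18) and Kif5c (2.77 ± 0.22) were the highest of them and Nes (nestin, -5.62 ± 0.37) the lowest. The median was 1.01 over the 23, against -0.08 over all genes.

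Vim was the filament gene of the satellite glia, which held 72.2% and 70.2% of its UMIs. It had 48.2 and 51.2 UMIs per 10000 in satellite glia, 39.4 and 32.1 in non-myelinating Schwann cells, 20.8 and 19.6 in myelinating Schwann cells and 18.3 and 14.2 in vascular smooth muscle cells. Fibroblasts had 11.8 and 12.3, endothelial cells 7.80 and 8.18, pericytes 5.37 and 8.50 and macrophages 1.79 and 6.43, and as a ratio the libraries were furthest apart in macrophages. After each cell was thinned to 1000 UMIs, 98.2% and 97.9% of satellite glia and 59.8% and 57.5% of fibroblasts held a Vim UMI, against 12.6% and 42.0% of macrophages and 6.60% and 43.6% of erythroid cells. Without thinning these shares were 99.8% and 99.6%, 90.8% and 93.7%, 31.8% and 74.4%, and 20.4% and 63.1%. Erythroid cells, which should lack Vim, had median depths of 8123 and 1755 UMIs. In replicate 2 the share of macrophages was below that of erythroid cells after thinning (42.0% and 43.6%) and above it without thinning (74.4% and 63.1%). The part of free RNA in the macrophage level was not tested. Endothelial cells, at 47.4% and 47.1% after thinning and median depths of 10710 and 6828 UMIs, had 8.90 and 6.14 Vim UMIs per barcode, against 1.81 and 1.82 in erythroid cells. Fibroblasts against satellite glia had a log2 difference of -2.17 ± 0.38 (edgeR adjusted p = 0.000137), and Vim alone of the 8 genes passed there, where 30.5% of genes did. All 5 partners that passed of 23 were lower, where 14.5% of genes were, led by Trim2 (-2.87 ± 0.21) and Nes (-2.71 ± 0.43).

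Among neurons Vim was highest in PEP-C, at 3.93 and 4.69 UMIs per 10000, with 2.18 and 2.62 in TRPM8, 1.61 and 1.94 in TH and 0.610 and 1.14 in NP1. Of PEP-C cells 130 of 137 and 193 of 209 exceeded 1 Vim UMI per 10000. The 7 satellite glia markers summed to 6.08 and 3.97 UMIs per 10000 in PEP-C, 7.36 and 8.74 in TRPM8 and 1.94 and 2.65 in NP1, against 198.6 and 189.6 in satellite glia. TRPM8 neurons had more of these markers and less Vim than PEP-C in both libraries. The part of glial RNA in the Vim levels of PEP-C, TRPM8 and the other neuron types was not tested.

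Gfap was rare, with 50 and 173 UMIs in all kept barcodes. Non-myelinating Schwann cells had 16 and 34 UMIs, in 13 of 310 and 14 of 171 cells, which is 0.162 (95% Poisson interval 0.0924 to 0.263) and 0.683 (0.473 to 0.954) per 10000. Satellite glia had 19 and 58 UMIs, 0.00909 (0.00547 to 0.0142) and 0.0308 (0.0233 to 0.0398) per 10000. In both types the intervals of the libraries did not overlap, and they cover counting error only. In myelinating Schwann cells 1 and 9 UMIs were counted, the 9 in 5 cells. Fibroblasts had 0 and 1 and vascular smooth muscle cells 0 in each library, where 3 UMIs would have been 0.0427 and 0.0488 per 10000.

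Non-myelinating Schwann cells, which bundle unmyelinated axons, exceeded satellite glia in Gfap by 3.97 ± 0.68 (SE, log2, edgeR adjusted p = 0.000572), at 12.9 and 55.2 CPM against 0.941 and 3.13 CPM. In all 5 of the 8 genes passed there, where 17.3% of genes did. The others were Prph (1.05 ± 0.26), Nefl (0.98 ± 0.24), Nefh (0.98 ± 0.20) and Nefm (0.97 ± 0.21), whose UMIs per barcode were nearly equal in both types. Without the library term Nefm, Nefh and Prph did not pass (edgeR adjusted p = 0.0991, 0.14 and 0.35). Nefl had 6.69 and 4.80 UMIs per barcode in these Schwann cells, against 6.58 and 4.69 in satellite glia, at median depths of 2998 and 2830, against 7967 and 6560 UMIs. Vim did not pass (-0.82 ± 0.37, edgeR adjusted p = 0.147). Of the 23 partners 6 were higher and 3 lower, where 8.10% of genes passed as higher and 9.22% as lower, with Ank3 (3.24 ± 0.36) and Synm (1.32 ± 0.20) the largest rises and Nes (-2.87 ± 0.56) the largest fall. The part of free RNA in these partner differences was not tested.

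Myelinating against non-myelinating Schwann cells differed in Gfap, by -4.06 ± 0.79 (SE, log2, edgeR adjusted p = 0.00176), at 0.227 and 4.66 CPM against 12.9 and 55.2 CPM. The lower of these values rests on 1 UMI, at 0.00233 per 10000 (95% Poisson interval 5.89e-05 to 0.0130). Without the second library the log2 difference was -5.82, with no test. Gfap was 1 of the 8 genes that passed there, where 13.0% of genes did. Nes was higher by 4.37 ± 0.53 and Kif5b by 1.15 ± 0.23, and Ank3 was lower by a log2 difference of -1.33 ± 0.34. Of the 23 partners 3 were higher and 3 lower, where 6.21% and 6.78% of genes were.

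Des was held by mural cells, the contractile cells around vessels. Pericytes had 175 and 381 of its 484 and 800 UMIs, a level of 3.70 and 5.39 UMIs per 10000, and vascular smooth muscle cells had 147 and 200, a level of 2.09 and 3.25. Fibroblasts had 2 and 5 UMIs, endothelial cells 33 and 22, neurons 26 and 20, and myelinating Schwann cells 0 in each library, where 3 UMIs would have been 0.00698 and 0.0181 per 10000. A further 18.6% and 15.4% of Des UMIs lay in barcodes that the gate left unnamed. After thinning to 1000 UMIs, 27.7% and 41.1% of pericytes and 17.0% and 25.6% of vascular smooth muscle cells held a Des UMI, against 0 of 256 and 475 fibroblasts (upper bounds of the exact 95% binomial interval 1.43% and 0.774%), while without thinning these shares were 61.1% and 74.4%, 58.0% and 60.5%, and 0.766% and 0.632%.

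Mural cells (the mean of pericytes and vascular smooth muscle cells) exceeded fibroblasts in Des by 7.61 ± 0.49 (SE, log2, edgeR adjusted p = 3.52e-09), at 248.9 and 387.1 CPM in mural cells against 1.12 and 1.95 CPM in fibroblasts. It was 1 of the 8 genes to pass, where 21.9% of genes did. Vim did not pass (-0.26 ± 0.31, edgeR adjusted p = 0.635). All 6 partners that passed of 23 were higher, where 8.95% of genes were, led by Nes (3.99 ± 0.42), Map2 (2.20 ± 0.30), Synm (1.56 ± 0.19) and Dst (dystonin, a linker of filaments, 1.19 ± 0.20).

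Vascular smooth muscle cells against pericytes differed in Vim, by 1.46 ± 0.38 (SE, log2, edgeR adjusted p = 0.021), at 1740 and 1362 CPM against 433.8 and 730.3 CPM. Des did not pass (-0.58 ± 0.31, edgeR adjusted p = 0.364). Vim was 1 of the 8 genes to pass, where 6.46% of genes did, and it did not pass with Leiden clusters (0.85) or with library left out of the fit. Synm (2.02 ± 0.21), Dst (1.48 ± 0.23), Plec (1.06 ± 0.24) and Macf1 (0.83 ± 0.24), which tie filaments to other structures, were higher and Mapt (-1.48 ± 0.35) was lower, where 3.99% and 2.47% of genes were. Pericytes were the shallower type, at median depths of 2925 and 3303 UMIs against 5548 and 4674. The part of free RNA in the Mapt difference was not tested.

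**Figure D5:**
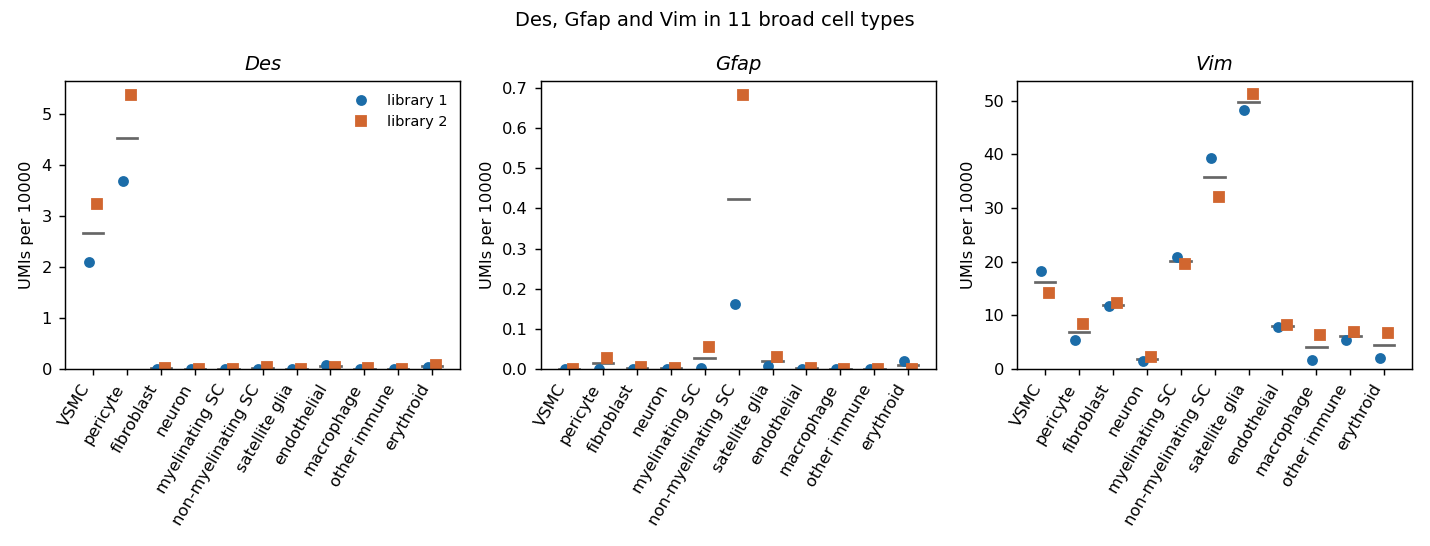
Level of Des, Gfap and Vim in 11 broad cell types, as UMIs of the gene per 10000 UMIs of the type on linear axes that differ between panels. Points are the 2 libraries and bars their mean. Des lies in pericytes and vascular smooth muscle cells (VSMC), Gfap in non-myelinating Schwann cells (SC) and Vim in satellite glia and Schwann cells.

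Over the 22 sums of broad type and library, the genes most like Vim in log2(CPM + 1) included Cyp39a1 (r = 0.909) and Cep85l. For Gfap they were Fam47e (0.849), Sap30bpos and Trp63, and for Des Notch3 (0.964), itself a pericyte marker of the gate, Gm13861 and Ephx3. Perineurial cells were too few for a comparison, with 2 and 7 barcodes.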

How the data were processed

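The authors deposited unnormalised UMI counts for every gene in every barcode, from Cell Ranger 5.0.1 per the file headers, on build mm10 after CASAVA 1.8 per the submitters' processing notes. The annotation release and the cell calling, intron and strand settings were not given in the sources used here. The deposited barcode and feature files hold barcodes, gene identifiers and symbols. Libraries held 113251556 and 102347251 UMIs in 8818 and 11767 barcodes. Of these barcodes 24 occur in both libraries, 17 of them among those kept.

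Barcodes needed 500 genes or more and less than 20% of UMIs from mitochondrial genes. Scrublet's automatic thresholds marked 1 and 0 barcodes and so did not work, and the highest scores were removed at 0.8% per 1000 cells (555 and 1020). Each barcode was scored on 12 broad marker lists, and neurons then on 8 neuron lists, from log-scaled UMIs per 10000. Barcodes were not thinned for this scoring, so their depths differed. Thinning to 1000 UMIs was used only for shares of cells with a UMI. A barcode took the best broad type when that score reached 0.25 and led by 0.1. Neurons below 10000 UMIs were set aside as shallow neuronal barcodes. The other neurons took the best neuron type when its score led by 0.3, with no lowest score required. The scoring was chosen after marker purity had been seen, and the 8 genes took no part in it. Of the 18044 barcodes 2470 lay within 0.05 of the broad margin, and Leiden clusters (resolution 1, and 1.5 for neurons) gave the same type to 13470 of 15342 named barcodes and 1054 of 1263 named neurons.

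Counts were summed per type and library for types with 20 cells in each. The sums were tested with edgeR 4.0.16 (R 4.3.3), with TMM factors, its low-count filter, the quasi-likelihood test (terms: type and library) and Benjamini-Hochberg adjustment over all genes at 0.05. The neuron fit held 16 sums, 12837 genes and 7 residual degrees of freedom, and the broad fit 22 sums, 13301 genes and 10. On simulated data the neuron step (11997 genes, NF against C-fibre types) recovered 97% of 2-fold and 100% of 4-fold changes with 5 false of 202 calls. The broad step (11452 genes, non-myelinating Schwann cells against satellite glia) recovered 68% and 100% with 9 false of 177. Apart from the planted changes, the simulation gave every type the same profile, with a fixed spread for all genes and no library effect. Its rates need not hold for the real sums. Scanpy 1.11.5, scipy 1.17.1 and DESeq2 1.42.0 were used, and coordinates come from GENCODE mouse release 21. Intervals cover counting error only.

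The members, partner list, markers and comparisons were chosen with earlier results of these data known. NP2, NP3 and TH against NP1 and fibroblasts against satellite glia were added after the data had been seen. All 8 members are named. Partners are named where they passed the test and reached 20 CPM on the higher side, up to 4 a direction. The 3 genes with the highest Pearson correlation of log2(CPM + 1) to a member are named as most alike. Some genes that these rules would name are not reported here. Alternatives were DESeq2, no filter, no library term, 1000 genes, 10% mitochondrial UMIs, high doublet scores kept, a doubled margin, Leiden clusters, neurons from 20000 UMIs, subtraction of background per barcode, and each library left out.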

Additional observations from a re-analysis of the deposited data

Results flagged for a closer look

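Shallow neuronal barcodes, those with neuron markers but under 10000 UMIs, entered no comparison and still held more UMIs of Nefl, Nefm, Nefh and Prph per barcode than any non-neuronal type of the same library. Nefl had 13.79 and 10.49 UMIs per barcode there (replicates 1 and 2), against at most 8.02 and 5.86 in non-neuronal types. Nefm had 6.683 and 3.814, against at most 4.38 and 2.39. Nefh had 3.732 and 2.082, against at most 3.37 and 1.36, and Prph had 3.639 and 7.222, against at most 1.85 and 3.08. These barcodes numbered 1312 and 1455, at median depths of 1058 and 1452 UMIs, and the triplet supplied 86.7% and 69.2% of their summed filament UMIs, against 52.6% and 46.5% in neurons. The cause was not tested.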

How the results depend on the processing

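Of 840 tested values of the 8 genes under alternative settings, 762 kept direction and side of the threshold, 25 changed sign while past the threshold in neither setting, 20 lost the call, 28 gained it and 5 reversed with a call. These 5 values, with the cause not tested beyond the cells described for NP3, were Nefh in itch neurons against NP1 (-0.44 with a doubled margin, -0.66 with Leiden clusters, -0.52 with neurons from 20000 UMIs) and in NP3 against NP1 (-0.81 with Leiden clusters, -0.54 from 20000 UMIs). With no replicate block, 1445 genes (11.3%) passed in PEP-A against PEP-C and 1264 (9.85%) in NP2 against NP1. In non-myelinating Schwann cells against satellite glia 1434 (10.8%) passed, with 2 of the 8 among them. Under that setting 2 of the 8 passed in TH against NP1 (25.9% of genes) and 0 in vascular smooth muscle cells against pericytes (4.74%). The block moved no other count by over 1.5 times. With DESeq2, 3 of the 8 passed in vascular smooth muscle cells against pericytes (7.07% of genes) and 4 in mural cells against fibroblasts (22.9%). With no low-count filter the counts of the 8 were 2 in myelinating against non-myelinating Schwann cells (8.8% of genes) and 2 in vascular smooth muscle cells against pericytes (5.15%). They were 1 in NP2 against NP1 (11.2%) and 3 in fibroblasts against satellite glia (20.2%). With high doublet scores kept they were 2 in vascular smooth muscle cells against pericytes (6.57%) and 2 in mural cells against fibroblasts (22.3%). With the wider margin the count was 4 in mural cells against fibroblasts (23.5%). With Leiden clusters the counts were 0 in vascular smooth muscle cells against pericytes (7.47% of genes) and 4 in mural cells against fibroblasts (24.8%). They were 1 in NP2 against NP1 (15.9%), 3 in TH against NP1 (33.8%) and 2 in fibroblasts against satellite glia (33.2%). The calls gained in the 2 comparisons of mural cells were all of Nefl, Nefm, Nefh or Ina, whose UMIs outside neurons were not read as expression. For the 2 counts of 0 in vascular smooth muscle cells against pericytes, 3 of the 8 (no replicate block) and 4 of the 8 (Leiden clusters) had an unadjusted edgeR p under 0.05. Leaving out either library, with no test, changed the sign of 0 of 98 values of called differences and of 9 of 94 others, among them Des in neurons against satellite glia (2.61 without replicate 2). PEP-A could not be fitted with Leiden clusters or the wider margin, and perineurial cells in no setting. Gfap and Ina outside neurons rest on few UMIs, and 144 neurons lay within 0.1 of the neuron margin.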

Other observations

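The libraries differed in the proportions of filament RNA in the same direction in all 10 non-neuronal types. Types of a library share its free RNA, so these are not 10 separate observations. The Prph to Nefl ratio was 0.213 to 0.243 in replicate 1 and 0.521 to 0.609 in replicate 2, and among neurons it was 1.30 and 1.63. The cell types that supply this RNA were not tested.

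Gfap was higher in replicate 2 in non-myelinating Schwann cells (16 and 34 UMIs in 310 and 171 cells), in satellite glia (19 and 58 UMIs in 2483 and 2775 cells), in myelinating Schwann cells (1 and 9 UMIs) and in unnamed barcodes (5 and 50 UMIs). Both libraries carry the same treatment label.

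Barcodes left unnamed by the gate, 795 and 1907, held 18.6% and 15.4% of Des UMIs and 10.0% and 28.9% of Gfap UMIs, on 3.13% and 6.08% of all UMIs.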
